A study of Mus musculus with 8 samples.

Results

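The cytochrome P450 genes of families 1 to 3 were compared between mouse livers given an adenovirus labelled AdLeXis and mouse livers given one labelled AdGFP. They were taken as every name on the array that starts with Cyp1, Cyp2 or Cyp3 followed by a subfamily letter and a number, leaving out all Cyp2b genes, Cyp2c55 and Cyp3a11. Of 56 such names 49 remained, out of 34947 names on the array, and 46 of them were among the 23985 genes tested. The mice were of the strain labelled bl6, 12 weeks old and fed chow, and liver RNA was taken on day 6. Each group had 4 samples, AdLeXis carrying the long non-coding RNA LeXis and AdGFP the green fluorescent protein as its control. A free-text treatment field instead speaks of vectors called pblockITcontrol and pblockITshRaly, and groups follow the treatment tag, which the sample titles match. Nothing in the labels gives the sex of the mice or says that each sample is a separate animal, so a p-value here weighs the difference against sample-to-sample spread that may in part be technical. No probe on the array carries the name LeXis, so the groups could not be checked against the transcript that was delivered.

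P450 enzymes are heme proteins of the endoplasmic reticulum that insert an oxygen atom into their substrates, with electrons passed on by P450 reductase and cytochrome b5. Families 1 to 3 hold most of the enzymes that clear drugs, plant compounds and pollutants, and several also hydroxylate steroids or turn arachidonic acid into epoxides. In liver most of them are made mainly by hepatocytes, many mostly in the cells around the central vein, and several mouse members differ between males and females.

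Both groups were measured on 1-colour arrays, and values are log2 intensities scaled to each array's 75th percentile. Before scaling that percentile was 220 to 297 for AdGFP and 381 to 448 for AdLeXis. The share of spots well above background was 58.9% to 62.5% for AdGFP and 62.6% to 67.7% for AdLeXis. All 8 arrays lay on 1 slide, with the AdGFP arrays in one column and the AdLeXis arrays in the other, so position and group cannot be told apart. Of 20 hepatocyte markers 14 fell, with a median log2 difference of -0.45, and their summed level was 22.20 to 22.29 on AdGFP arrays and 21.65 to 21.87 on AdLeXis arrays. Of 23 T cell and natural killer cell markers tested 20 fell (median -1.04; summed level 15.05 to 15.24 against 14.12 to 14.39), as did 25 of 32 interferon-stimulated genes (median -1.05) and 9 of 17 Kupffer cell and macrophage markers (median -0.49). Of 15 endothelial markers limma called 0, also with no adjustment of p, of 15 stellate cell and fibroblast markers 4 fell, and of 8 bile duct and 6 B cell markers tested 1 each fell. Of all genes 8.77% were called lower, and of those with a mean log2 intensity of 16 or over 39.2%. Most of the hepatocyte markers called lie there (Alb at 19.1 on AdGFP arrays), while Apob (15.65) does not. The part of brightness in their falls was not tested. In these bulk samples fewer cells of a type and less RNA per cell cannot be told apart, and the part of either in the P450 values was not tested.

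The P450 genes moved in both directions. A difference was called where limma's Benjamini-Hochberg adjusted p over all genes was below 0.05. Of the 46 genes tested 7 were called lower and 6 higher, 13 or 28.3%, against 17.5% of all genes called (8.77% lower and 8.74% higher). The split of all calls depended on the scaling, with 49.9% of them higher here, 30.1% with scaling to the median (8 P450 falls and 5 rises) and 23.5% with normexp background correction (14 and 9). With normexp 50% of the P450 genes were called against 52.8% of all genes, and with scaling to the median 28.3% against 16%. Their median log2 difference, AdLeXis minus AdGFP, was -0.09, against -0.0018 over all genes tested, and 0.01 when arrays were scaled by quantiles. The 4 AdLeXis arrays lay wholly to 1 side of the 4 AdGFP arrays for 12 of the 46 genes (26.1%; 7 below and 5 above), against 24.7% of all genes (12.3% below and 12.4% above). Those called lower were Cyp1a2, Cyp2c50, Cyp2d11, Cyp2e1, Cyp2g1, Cyp2r1 and, by a probe with a simple repeat only, Cyp2u1, and those that rose were Cyp2a22, Cyp2c39, Cyp2j6, Cyp2j13, Cyp3a16 and Cyp3a41b. The count of falls depended on single arrays: leaving out AdGFP replicate 1 gave 3, and leaving out AdGFP replicate 2 or 3 or AdLeXis replicate 2 gave 4. The share of all genes called in either direction also dropped, from 17.5% to 11.7%, 11.9%, 13% and 11.9% in that order.

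**Figure D1:**
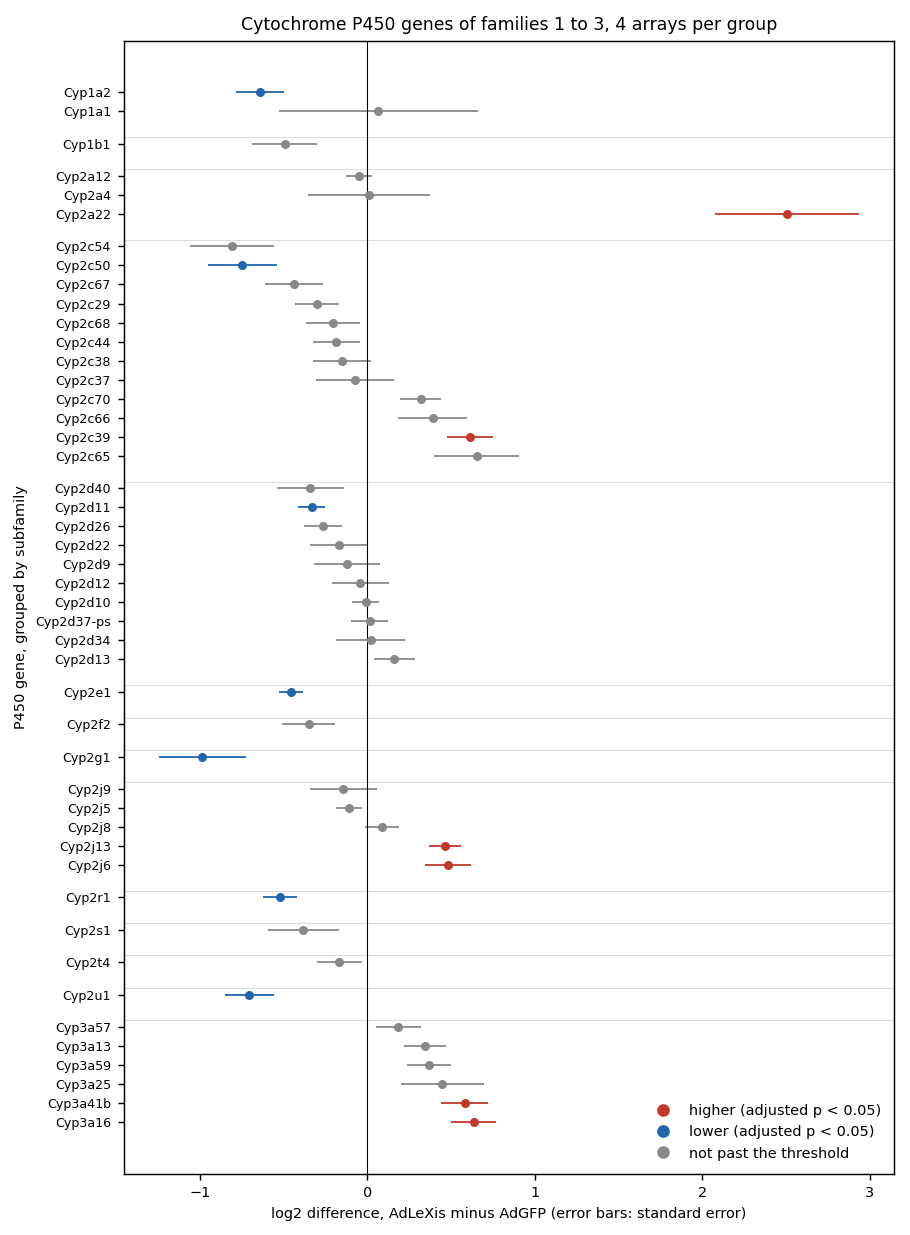
Log2 difference between AdLeXis and AdGFP (x axis) for the 46 P450 genes tested, grouped by subfamily (y axis), with the standard error as bars and colour for genes past the threshold. All 6 Cyp3a genes lie above 0, between 0.19 and 0.63, whereas Cyp2c genes lie on both sides, from -0.81 to 0.65, and Cyp2a22, near the detection limit in AdGFP, is at 2.51 here and at 0.36 with normexp correction.

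Family 1 holds the enzymes induced through the aryl hydrocarbon receptor, a sensor of planar aromatic compounds. Cyp1a2, the liver form that oxidises caffeine and aromatic amines, read 13.67, 13.48, 13.38 and 13.43 on AdGFP replicates 1 to 4 and 13.15, 12.54, 12.72 and 13 on AdLeXis replicates 1 to 4. Every AdLeXis array was below every AdGFP array. Cyp1a2 was 1.56-fold lower (log2 difference -0.64 ± 0.14 SE, adjusted p = 0.0195). Cyp1a1, the broadly inducible form, was well above background on 1 AdGFP and 3 AdLeXis arrays only, and its difference was 0.06 ± 0.59. Cyp1b1, a mainly extrahepatic enzyme, had a difference of -0.50 ± 0.19 that did not pass (adjusted p = 0.115). Among 9 other targets of the receptor 1 was called (against 17.5% of all genes), its repressor Ahrr (-0.53 ± 0.14, adjusted p = 0.032), and the median of the 9 was -0.02.

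The Cyp2e, Cyp2g, Cyp2r and Cyp2u subfamilies each have 1 gene here; Cyp2e1, Cyp2g1 and Cyp2r1 fell, and Cyp2u1 was called lower through 1 of its 3 probes. Cyp2e1, which oxidises ethanol and paracetamol and is among the most abundant P450 transcripts of liver, read 18.24, 18.25, 18.22 and 18.19 on AdGFP arrays and 17.85, 17.71, 17.75 and 17.78 on AdLeXis arrays. The spread within each group was small beside the gap between them. The fall was 1.37-fold (-0.45 ± 0.07, adjusted p = 0.00478). Its second probe, upstream in the gene, gave -0.17 ± 0.12 and did not pass. With quantile scaling, which forces all arrays to the same distribution, the difference was 0.03.

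Cyp2r1, the vitamin D 25-hydroxylase, read 11.81, 11.95, 11.99 and 11.97 on AdGFP arrays and 11.23, 11.42, 11.63 and 11.36 on AdLeXis arrays. The groups did not overlap, and the fall was 1.44-fold (-0.52 ± 0.10, adjusted p = 0.0118). A second probe, close by in the gene, gave -0.47 ± 0.12. Cyp2g1, best known as a P450 of the olfactory mucosa, read 9.90, 9.59, 9.31 and 9.03 on AdGFP arrays and 9.14, 8.05, 8.33 and 8.36 on AdLeXis arrays. AdLeXis replicate 1 lay above AdGFP replicate 4, so the groups overlapped. The fall was 1.98-fold (-0.99 ± 0.26, adjusted p = 0.035).

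Cyp2u1, an enzyme that hydroxylates long-chain fatty acids, was called lower through a probe that holds a simple repeat. The probes are shown because they disagree: the first carries 32 bases of alternating GT, of which 18 fall within the 30 bases printed, in capitals, and the others carry no such repeat. They are the first 30 of 60 bases of each probe, 5′ to 3′, on the minus strand of mouse build mm9.
Cyp2u1 repeat probe, chr3:130996343-130996402: actttatcattgGTGTGTGTGTGTGTGTGT
Cyp2u1 probe 2, chr3:130997965-130998356: tgtccatggtggtgccgctcgccattcctc
Cyp2u1 probe 3, chr3:131000939-131000998: tacctcccctttggtccatttaaggagcta
The repeat probe read 17.33, 17.21, 17.51 and 17.27 on AdGFP arrays and 16.37, 16.91, 16.84 and 16.39 on AdLeXis arrays (-0.70 ± 0.15, adjusted p = 0.0156). Probe 2 read 7.47, 7.29, 7.90 and 7.83 on AdGFP arrays and 7.80, 7.85, 8.23 and 8.27 on AdLeXis arrays, a difference of 0.42 ± 0.18 that did not pass. Probe 3 gave 0.43 ± 0.22 and did not pass either. The sign therefore differed between the probe with the repeat and the probes without it.

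Probes with the same kind of repeat went the same way across the array. Of 51 other tested probes with at least 10 GT units (20 bases), all 51 had a difference below 0, with a median of -0.74 and a range of -1.04 to -0.39, and 25 were called lower and 0 higher in a limma fit over 34440 probes (50 and 0 at an unadjusted p under 0.05). In that fit 7.17% of probes were called lower and 7.70% higher, with a median difference of 0.002. The 24 probes with the complementary CA repeat had a median of 0.16 and a range of -0.10 to 0.34, with 0 called by limma and 0 at an unadjusted p under 0.05. With all such GT probes left out, a choice made after seeing the data, Cyp2u1 had a difference of 0.42 (adjusted p = 0.141), 6 of 46 P450 genes fell, and their median was -0.06. Why the repeat probes were lower was not tested, and the call on Cyp2u1 is given for that probe, not for the gene.

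**Figure D2:**
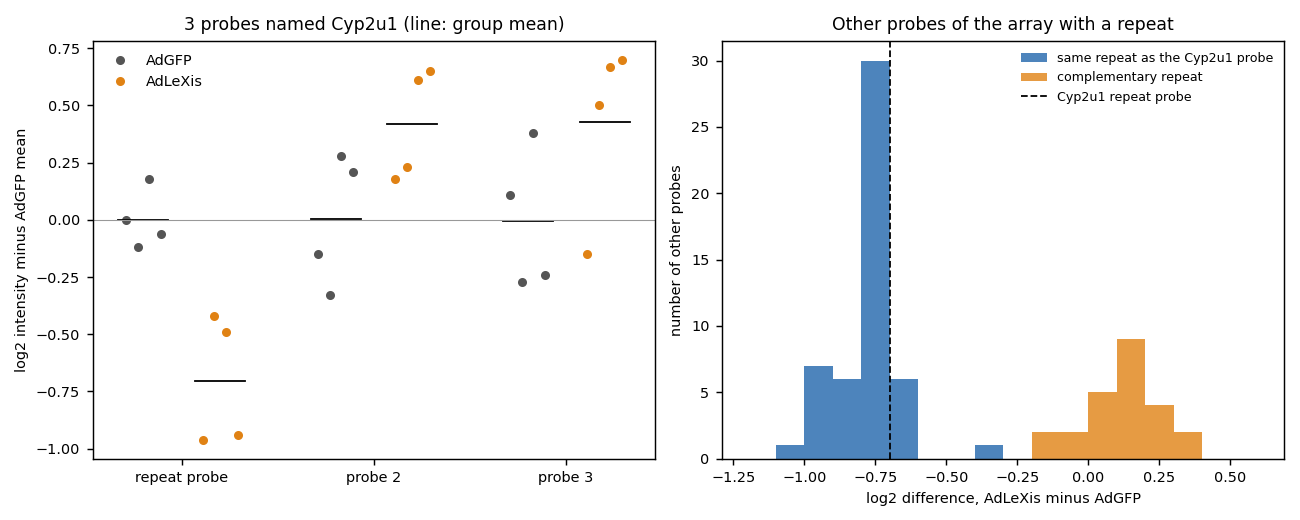
Left, log2 intensity of the 3 Cyp2u1 probes on each array relative to the AdGFP mean of that probe (y axis), with lines at group means; right, a histogram of log2 differences (x axis) of other array probes that hold the same or the complementary repeat. The Cyp2u1 repeat probe at -0.70 lies among the 51 probes with the same repeat (median -0.74), away from the 24 with the complementary repeat (median 0.16).

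The remaining subfamilies with 1 gene each gave no call. Cyp2f2, which oxidises naphthalene and marks hepatocytes around the portal vein, had a difference of -0.35 ± 0.16 (adjusted p = 0.169). Cyp2s1 had -0.38 ± 0.21 and Cyp2t4 -0.17 ± 0.13. Cyp2w1 was well above background on 0 of 8 arrays and was not tested.

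In Cyp2a, Cyp2a22 rose from near the detection limit. It read 3.70, 3.93, 1.91 and 2.93 on AdGFP arrays, 2 of which were well above background, and 6.13, 5.76, 5.13 and 5.48 on AdLeXis arrays, all 4 well above background. Every AdLeXis array was above every AdGFP array. The fitted difference was 2.51 ± 0.43 (adjusted p = 0.00704). Its size depended on the treatment of background: normexp correction, which models and removes background before the log, gave 0.36, still called. Cyp2a4, a steroid 15α-hydroxylase, had a difference of 0.01 ± 0.37, with AdGFP replicate 4 at 16.09 and the other AdGFP arrays between 17.43 and 17.82. A second, dimmer Cyp2a4 probe gave -0.28 ± 0.25 and did not pass either. Cyp2a12, a bright gene, had -0.05 ± 0.08.

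The Cyp2c subfamily includes epoxygenases of arachidonic acid and the main liver enzymes for several drugs, and it spread in both directions. Of 12 genes tested 1 fell and 1 rose (16.7%, against 17.5% of all genes), with 8 below and 4 above 0 and a median of -0.17. Cyp2c50 read 15.36, 15.18, 15.26 and 15.04 on AdGFP arrays and 14.75, 14.42, 14.82 and 13.86 on AdLeXis arrays. The groups did not overlap, and AdLeXis replicate 4 was the lowest. The fall was 1.68-fold (-0.75 ± 0.21, adjusted p = 0.04).

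Cyp2c54, from the same cluster on chromosome 19, had the same arrangement without passing the threshold. It read 14.55, 14.39, 14.49 and 14.30 on AdGFP arrays and 14, 13.61, 14.05 and 12.84 on AdLeXis arrays (-0.81 ± 0.25, adjusted p = 0.0576). Its other probes gave -0.95 and -0.90, and the second of these, which has 42 bases in common with the first, passed in a fit over probes (adjusted p = 0.0461). Without AdLeXis replicate 4 the difference was -0.55 and passed (adjusted p = 0.0424), and without AdLeXis replicate 1 or 3 it was -0.93 and -0.95 and passed too (adjusted p = 0.0495 and 0.0474). AdLeXis replicate 4 was the lowest of the 4 AdLeXis arrays for 6 of 12 Cyp2c genes, against 24.8% of all genes.

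Cyp2c39, which hydroxylates retinoic acid, went the other way. It read 9.14, 9.09, 8.64 and 8.99 on AdGFP arrays and 9.82, 9.41, 9.59 and 9.48 on AdLeXis arrays. All AdLeXis arrays were higher, by 1.53-fold on the mean (0.61 ± 0.14, adjusted p = 0.0199). Cyp2c70, which makes the muricholic acids of mouse bile, had 0.32 ± 0.12 (adjusted p = 0.106), and the epoxygenase Cyp2c29 had -0.30 ± 0.13 (adjusted p = 0.156). Cyp2c67 had -0.44 ± 0.17 and Cyp2c65, well above background on 1 AdGFP and 3 AdLeXis arrays, 0.65 ± 0.25. Cyp2c38 was named after its values were seen because its probes disagreed: the brighter gave -0.15 ± 0.17, and the dimmer gave 0.99 ± 0.25 and passed in the fit over probes (adjusted p = 0.0329). Over 6 epoxygenase genes of the Cyp2c and Cyp2j subfamilies 1 was called, Cyp2j6, against 17.5% of all genes, and the median was -0.15.

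Many Cyp2c genes are near copies of each other, and their probes may detect more than 1 of them. The probes of Cyp2c67 and Cyp2c68 had 55 of 59 overlapping bases in common (93.2%), and those of Cyp2c37 and Cyp2c50 35 of 40 (87.5%). The promoters of Cyp2c50 and Cyp2c37 are also alike, with 264 of 305 aligned columns identical (86.6%), and are printed because Cyp2c50 fell while Cyp2c37 had a difference of -0.07 ± 0.23, a pair chosen after the values were seen. They run from 250 bases before to 50 after the gene start on the plus strand, from RefSeq on build GRCm38.p6, and the 36 capitals in each mark bases unlike the partner or missing from it.
Cyp2c50, chr19:40089429-40089728: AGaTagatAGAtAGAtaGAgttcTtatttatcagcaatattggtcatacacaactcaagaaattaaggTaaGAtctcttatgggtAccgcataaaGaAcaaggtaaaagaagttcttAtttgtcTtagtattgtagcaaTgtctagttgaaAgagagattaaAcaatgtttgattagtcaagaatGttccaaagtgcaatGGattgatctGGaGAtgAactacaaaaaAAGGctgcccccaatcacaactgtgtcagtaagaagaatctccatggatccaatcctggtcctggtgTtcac
Cyp2c37, chr19:39992174-39992473: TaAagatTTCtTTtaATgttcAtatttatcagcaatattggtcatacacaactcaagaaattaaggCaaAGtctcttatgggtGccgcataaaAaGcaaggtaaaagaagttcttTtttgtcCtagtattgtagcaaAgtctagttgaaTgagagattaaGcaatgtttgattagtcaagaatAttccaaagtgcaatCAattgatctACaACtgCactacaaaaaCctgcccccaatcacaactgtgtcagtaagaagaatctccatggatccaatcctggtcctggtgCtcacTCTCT
The difference between these genes was itself not tested. A second, dimmer Cyp2c37 probe gave -0.41 ± 0.21 and did not pass in the fit over probes (adjusted p = 0.231). The contrast with Cyp2c50 is therefore that of the brighter Cyp2c37 probe. By the brighter probe, AdGFP arrays of Cyp2c37 ran from 12.78 to 13.11 and AdLeXis arrays from 12.23 to 13.45, with AdLeXis replicate 4 again the lowest.

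**Figure D3:**
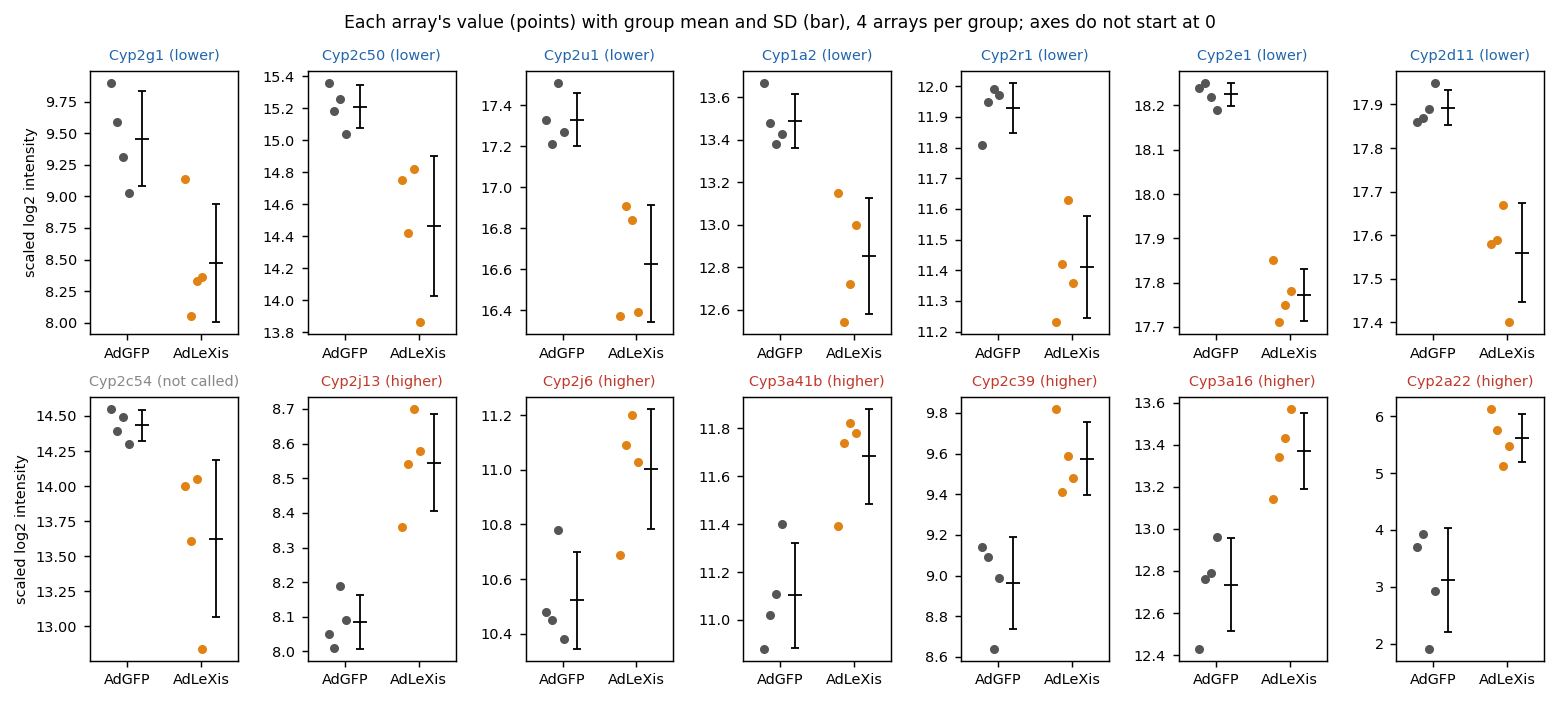
Scaled log2 intensity (y axis, own range in each panel) on each of 4 AdGFP and 4 AdLeXis arrays for the 13 P450 genes called and for Cyp2c54, with group means and SD. AdLeXis replicate 4 lies lowest for Cyp2c50 at 13.86 and Cyp2c54 at 12.84, while the Cyp2e1 arrays are tight, at 18.19 to 18.25 and 17.71 to 17.85.

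The Cyp2d genes are the mouse relatives of the human drug enzyme CYP2D6. Of 10 genes tested 1 fell (against 8.77% of all genes lower) and 0 rose by limma (0 at an unadjusted p under 0.05), with a median of -0.08 and a range of -0.34 to 0.16. Cyp2d11 read 17.86, 17.87, 17.89 and 17.95 on AdGFP arrays and 17.58, 17.59, 17.67 and 17.40 on AdLeXis arrays. It was 1.26-fold lower without overlap (-0.33 ± 0.08, adjusted p = 0.0277), but quantile scaling gave 0.09. Cyp2d26 (-0.26 ± 0.11), Cyp2d40 (-0.34 ± 0.20), Cyp2d22 (-0.17 ± 0.17), the transcribed pseudogene Cyp2d13 (0.16 ± 0.12) and Cyp2d9 (-0.12 ± 0.20), a testosterone 16α-hydroxylase known as higher in males, did not pass.

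Within the AdLeXis group the Cyp2d genes varied together. Cyp2d9 read 15.27, 15.27, 15.25 and 15.08 on AdGFP arrays and 14.64, 15.44, 15.48 and 14.82 on AdLeXis arrays. AdLeXis replicates 2 and 3 were thus above the AdGFP arrays and replicates 1 and 4 below them. For 9 of the 10 Cyp2d genes AdLeXis replicates 2 and 3 were both above replicates 1 and 4, against 20.4% of all genes, 0 of 12 Cyp2c genes and 2 of 6 Cyp3a genes tested. Among all 46 P450 genes tested, the Cyp2d genes included, it held for 17 (37%), so some genes of other subfamilies had it too. This arrangement was picked out after the values were seen, and the Cyp2d probes lie in 1 cluster on chromosome 15, so it was given no test.

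Cyp2j enzymes are epoxygenases of fatty acids. Of 5 genes tested 2 rose (against 8.74% of all genes higher) and 0 fell by limma (0 at an unadjusted p under 0.05), with a median of 0.09. Cyp2j13 read 8.05, 8.01, 8.19 and 8.09 on AdGFP arrays and 8.36, 8.54, 8.70 and 8.58 on AdLeXis arrays. It was 1.38-fold higher without overlap (0.46 ± 0.09, adjusted p = 0.0132). Its other 2 probes were well above background on 0 of 8 arrays, so the call rests on 1 probe. Cyp2j6 read 10.48, 10.45, 10.78 and 10.38 on AdGFP arrays and 10.69, 11.09, 11.20 and 11.03 on AdLeXis arrays, where replicate 1 lay below AdGFP replicate 3. Its rise was 1.40-fold (0.48 ± 0.14, adjusted p = 0.0442), and a second probe gave 0.30 ± 0.19. Cyp2j5 (-0.11 ± 0.08), Cyp2j8 (0.09 ± 0.10) and Cyp2j9 (-0.14 ± 0.20) did not pass, and Cyp2j11 was well above background on 0 of 8 arrays.

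Cyp3a enzymes oxidise steroids and a wide range of drugs, and Cyp3a was the only subfamily with over 3 genes tested in which all differences had the same sign. All 6 were above 0, between 0.19 and 0.63 with a median of 0.41, and 2 rose (33.3%, against 8.74% of all genes higher). Each of the 6 stayed above 0 in all 19 alternative analyses. Cyp3a16 read 12.43, 12.76, 12.79 and 12.96 on AdGFP arrays and 13.14, 13.34, 13.43 and 13.57 on AdLeXis arrays. It was 1.55-fold higher without overlap (0.63 ± 0.14, adjusted p = 0.0167).

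Cyp3a41b read 10.88, 11.02, 11.11 and 11.40 on AdGFP arrays and 11.39, 11.74, 11.82 and 11.78 on AdLeXis arrays. AdLeXis replicate 1 was just below AdGFP replicate 4, and the rise was 1.5-fold (0.58 ± 0.14, adjusted p = 0.026). Cyp3a25 had 0.45 ± 0.25 (adjusted p = 0.256), where AdGFP replicate 1 read 13.87 and the other AdGFP arrays 14.93 to 14.96, all below the AdLeXis arrays at 14.97 to 15.37. Without that array its difference was 0.18 (adjusted p = 0.343). Cyp3a13 (0.34 ± 0.13, adjusted p = 0.0992), Cyp3a59 (0.37 ± 0.13, adjusted p = 0.0926) and Cyp3a57 (0.19 ± 0.13) did not pass.

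Cyp3a16 and Cyp3a41b are both known as higher in female than in male mouse liver, and their promoters are 89.9% identical (277 of 308 aligned columns). Both are printed because both genes rose, from RefSeq on build GRCm38.p6, minus strand, 250 bases before to 50 after the gene start. Capitals mark, in order, matches to the letters searched for FOXA, the TATA box and HNF4A, spelled out after the sequences. A match was marked at any distance from the start, and none was tested as a working site.
Cyp3a16, chr5:145469674-145469973: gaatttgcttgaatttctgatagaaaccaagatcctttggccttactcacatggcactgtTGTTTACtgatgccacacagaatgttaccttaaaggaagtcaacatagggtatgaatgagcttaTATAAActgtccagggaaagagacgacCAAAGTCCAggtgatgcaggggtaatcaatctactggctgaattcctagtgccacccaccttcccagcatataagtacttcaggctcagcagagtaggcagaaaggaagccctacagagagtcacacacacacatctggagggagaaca
Cyp3a41b, chr5:145584681-145584980: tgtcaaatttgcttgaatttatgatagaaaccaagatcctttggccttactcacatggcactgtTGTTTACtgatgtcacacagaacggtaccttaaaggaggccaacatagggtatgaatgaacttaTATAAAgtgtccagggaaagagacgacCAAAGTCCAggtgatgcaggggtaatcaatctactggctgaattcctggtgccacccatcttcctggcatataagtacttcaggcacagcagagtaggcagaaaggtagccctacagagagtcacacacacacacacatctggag
The HNF4A letters started 99 bases before the start in Cyp3a16 and 95 in Cyp3a41b, the TATA box letters 126 and 122 bases, and the FOXA letters 190 and 186 bases. On both strands the HNF4A letters CAAAGTCCA were in 6 of 37 P450 promoters with an entry and in 0.475% of 32851 mouse promoters of the same length. The TATA box letters TATAAA were in 21 and in 13.616% of all promoters, and the FOXA letters TGTTTAC in 5 and in 3.65%. The letters read by the aryl hydrocarbon receptor, GCGTG after a T and any base, were in 1 promoter, that of Cyp2c68, and in 5.065% of all. Those read by C/EBP factors, TTGCNNAA, were in 6 and in 10.797%. An HNF1 site was in 0 of the 37 and in 0.009% of all, and a direct repeat read by nuclear receptors in 0 and in 0.04%. These are letter matches only, and some are in near copies such as the promoters of Cyp3a16 and Cyp3a41b, so they are not independent. P450 matches were counted per gene and those of all mouse promoters per promoter.

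A near copy of Cyp3a41b, Cyp3a44, was well above background on 0 AdGFP arrays and 1 AdLeXis array and was not tested. The probes overlap in sequence over 53 bases, 46 of them identical (86.8%), and the 7 unlike bases, in capitals, fall in the stretch shown, 30 bases of each probe on the minus strand of mm9.
Cyp3a41b probe, chr5:146319794-146319853: AcaGgttaTcatCtaatTAAaaagagatga
Cyp3a44 probe, chr5:146585717-146585776: GcaAgttaAcatAtaatACGaaagagatga
Of 7 genes known as higher in female liver 3 were tested. Cyp3a16 and Cyp3a41b rose, against 8.74% of all genes higher, and the third, Cyp2a4, was not called. Of 2 known as higher in male liver 1 was called lower, against 8.77% of all genes lower. That was Cyp2u1 through the repeat probe, a call not given for the gene, and Cyp2d9 was not called.

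By position in the liver lobule, 7 genes known as pericentral were tested and 3 fell, against 8.77% of all genes lower: Cyp1a2, Cyp2c50 and Cyp2e1. All 7 had differences below 0, from -0.81 to -0.07 with a median of -0.45, equal to the median of the hepatocyte markers. Apart from Cyp1a2 and Cyp2e1 the genes tested were all Cyp2c genes of chromosome 19. The list held no Cyp3a or Cyp2b gene, and all 6 Cyp3a genes tested were above 0, so the shared sign holds for this list only. Not all stayed below 0: Cyp2e1 was at 0.03 under quantile scaling, Cyp2c38 at 0.42 with the mean of kept probes and 0.24 with normexp correction, and Cyp2c37 at 0.14 without AdLeXis replicate 4. The periportal Cyp2f2 was at -0.35. Which of these is particular to a zone was not tested.

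Differences also went with brightness. Among the 400 genes with a mean log2 intensity of 16 or over, 39.2% were called lower and 0.75% higher, with a median of -0.23, and 7 P450 genes lay there, of which 3 were called lower (Cyp2d11, Cyp2e1 and the repeat probe of Cyp2u1) with a median of -0.33. Between 14 and 16, 9.87% of genes were lower and 3.95% higher, and 1 of 13 P450 genes fell. Between 11 and 14 the P450 genes had 2 falls and 2 rises among 11, where 9.77% of genes were lower and 10.4% higher. Of 8 P450 genes between 8 and 11, where 11.1% of genes were lower and 11.6% higher, 1 fell and 3 rose. Of 7 under 8, where 6.29% were lower and 7.51% higher, 1 rose. The fall between 14 and 16 was Cyp2c50. Between 11 and 14 Cyp1a2 and Cyp2r1 fell and Cyp3a16 and Cyp3a41b rose. Between 8 and 11 Cyp2g1 fell and Cyp2c39, Cyp2j6 and Cyp2j13 rose, and under 8 Cyp2a22 rose. The part of brightness in any single difference was not tested.

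**Figure D4:**
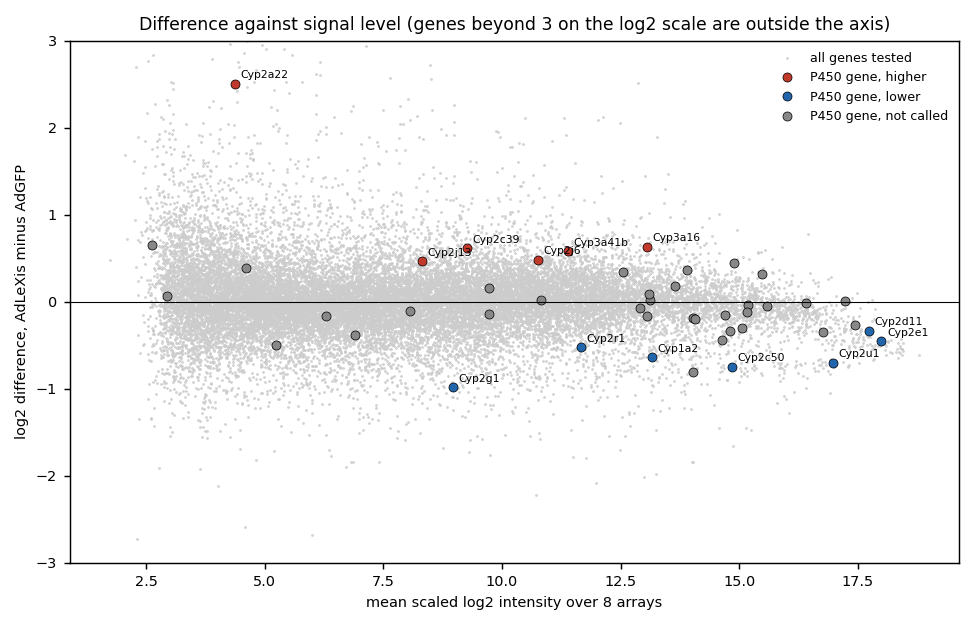
Log2 difference between AdLeXis and AdGFP (y axis) against mean scaled log2 intensity over 8 arrays (x axis) for all genes tested (grey dots) and the P450 genes (large points). At 16 and over the median of all genes is -0.23, and Cyp2e1, Cyp2d11 and the repeat probe of Cyp2u1 lie there, while called rises lie below 14.

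Among partners of the P450 enzymes, Alas1, which makes the first and limiting step of heme synthesis, fell by 0.70 ± 0.09 on the log2 scale (adjusted p = 0.00253). Hmox1, which breaks heme down, fell by 0.61 ± 0.11 (adjusted p = 0.00796). The other 10 of 12 heme genes were not called, where 17.5% of all genes were called, and the median of the 12 was -0.02. Another 8 genes were listed as partners: cytochromes b5, ferredoxin and their reductases with P450 reductase, Pgrmc1 and the epoxide hydrolase Ephx1. Of these 1 was called, cytochrome b5 (Cyb5a, -0.29 ± 0.08, adjusted p = 0.0423), which quantile scaling put at 0.03. Cyclic loess put it at -0.17 (adjusted p = 0.196). The call was also lost with no filter on dim probes (0.082) and with the replicate block (0.105). With single arrays left out, it held only without AdLeXis replicate 1. Alas1 and Cyb5a both lie at a mean log2 intensity of 16 or over, where 39.2% of all genes were called lower, and P450 reductase (Por), named after its value was seen, had a difference of 0.00 ± 0.13.

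Of 20 transcription regulators 3 rose and 1 fell, where 17.5% of all genes were called (8.77% lower and 8.74% higher). Arnt, the dimer partner of the aryl hydrocarbon receptor, had 0.37 ± 0.09 (adjusted p = 0.0221), Nfe2l2, the oxidative stress factor NRF2, 0.34 ± 0.09 (adjusted p = 0.0388), and the clock-output factor Hlf 0.35 ± 0.10 (adjusted p = 0.0411), and Ahrr fell as given above. With scaling to the median the adjusted p was 0.136 for Arnt, 0.139 for Nfe2l2 and 0.128 for Hlf. Without a filter on dim probes it was 0.063 for Ahrr, 0.0758 for Nfe2l2 and 0.0787 for Hlf. The mean of kept probes put Arnt at 0.17 (adjusted p = 0.221). The replicate block lost the calls on Arnt, Nfe2l2, Hlf and Ahrr (adjusted p from 0.063 to 0.0957). With single arrays left out, Nfe2l2 and Hlf held only without AdGFP replicate 1. Ahrr held only without replicate 3 of either group, and Arnt was lost without some arrays of either group (adjusted p up to 0.0645). The receptor CAR (Nr1i3), named after its value was seen, had -0.38 ± 0.13 (adjusted p = 0.0754). In conjugation, limma called 0 of 12 genes listed for glucuronidation (1 at an unadjusted p under 0.05), with a median of -0.17. They include Ugdh, which makes the cosubstrate, and Ugt1a9, whose value is that of the probe named Ugt1a6b. Of 16 flavin monooxygenases and carboxylesterases 2 rose (against 8.74% of all genes higher), Ces1e (1.30 ± 0.14, adjusted p = 0.00138) and Ces2e (0.76 ± 0.14, adjusted p = 0.00965). Of the P450 names left out, Cyp2b10 (2.51), Cyp2b9 (2.75), Cyp2b13 (2.70) and Cyp2c55 (1.37) were called higher, and Cyp3a11 (0.26) was not called.

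The calls differed in how they held up over 19 alternative analyses. Cyp2c39, Cyp2j13, Cyp2r1 and Cyp3a16 were called in all 19, and Cyp2a22 in the 18 that could test it. Cyp2e1 was lost under quantile scaling alone, Cyp2u1 under quantile scaling (-0.39) and with the mean of its probes (0.05), and Cyp1a2 only without AdGFP replicate 1 (adjusted p = 0.0535). The other calls rested on more arrays. Cyp2c50 was lost without any AdGFP array or AdLeXis replicate 2 (adjusted p from 0.0341 to 0.0958 over the arrays left out), and Cyp2d11 without any AdGFP array or AdLeXis replicates 2 or 4 (0.0338 to 0.0703). Cyp2g1 (0.0103 to 0.0867) and Cyp3a41b (0.0145 to 0.0717) were lost without AdGFP replicates 1, 2 or 3 or AdLeXis replicates 2, 3 or 4, and Cyp2j6 (0.0172 to 0.104) without AdGFP replicates 1, 2 or 4 or AdLeXis replicates 2, 3 or 4. These 5 calls were also lost with no filter on dim probes (adjusted p from 0.0536 to 0.0811). With no such filter the share of all genes called also dropped, from 17.5% to 8.3%. Quantile scaling and cyclic loess each lost Cyp2c50 (adjusted p = 0.0614 and 0.0523) and Cyp2d11 (0.556 and 0.135), and the replicate block lost Cyp2d11 (0.0764). Cyp2j6 was lost with scaling to the median (0.116) and with the mean of kept probes (0.121). Calls were gained without AdLeXis replicate 3 by Cyp2c29 (-0.41, adjusted p = 0.0407) and Cyp2c67 (-0.58, adjusted p = 0.0406), and without AdLeXis replicate 1 by Cyp3a13 (0.45, adjusted p = 0.0226).

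**Figure D5:**
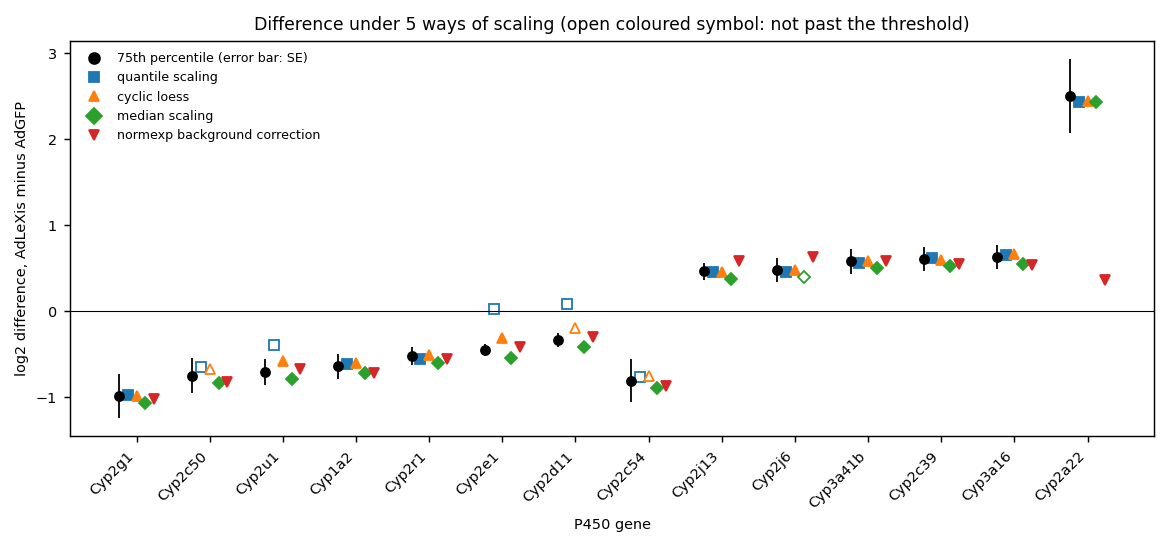
Log2 difference (y axis) of the 13 called P450 genes and Cyp2c54 (x axis) under 5 ways of scaling or background correction; the bar is the standard error of the 75th percentile scaling and open symbols mark values not past the threshold. Quantile scaling moves Cyp2e1 to 0.03 and Cyp2d11 to 0.09, and normexp correction moves Cyp2a22 to 0.36, while Cyp2r1 and Cyp3a16 are past the threshold in all 5.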

How the data were processed

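RNA from 8 mouse liver samples was measured on 1-colour Agilent arrays, 4 per group. The values used were linear spot intensities as deposited, which per the file headers had been background-subtracted and detrended inside each array, with Feature Extraction 11.5.1.1 (version 11.5.1.11 in the submitters' processing notes). The deposited value table held the same intensity. Flags for background and outliers, and probe positions on mouse build mm9, came from the same files.

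Outlier spots were dropped and spots of a probe averaged. Of 55681 non-control probes 34440 were kept, those exceeding background clearly (the files' flag) on 4 or more arrays with 2 or more values in both groups. A gene took its brightest kept probe. Log2 values were scaled to each array's 75th percentile and compared with limma 3.58.1 in R 4.3.3 (lmFit and eBayes, two-sided), adjusted over 23985 genes; ± is the standard error, with n = 4 per group. The fit was tested on simulated data. The number of arrays limits the precision. P450 genes kept their names in the files; others were updated through RefSeq accessions of GRCm38.p6. No mm9 gene annotation was used here, so exon and UTR positions are not given.

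The P450 genes and the lists were chosen with earlier results of these data known. Genes named were all those tested in subfamilies of up to 4, otherwise the 6 of smallest p and the 2 brightest, and up to 4 of each list. 19 alternatives were planned and 1 was added after seeing the data.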

Additional observations from a re-analysis of the deposited data

Results flagged for a closer look

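Among 74 groups of 4 arrays checked, 3 held an array apart from the other 3 by Dixon's criterion, which flags about 1 group in 20 by chance. Cyp2d9 read 15.08 on AdGFP replicate 4 and 15.25 to 15.27 on the other AdGFP arrays; without it the difference was -0.17. Cyp2t4 read 6.70 on AdGFP replicate 4 and 6.23 to 6.29 on the others; without it the difference was -0.06. Cyp3a25 read 13.87 on AdGFP replicate 1 and 14.93 to 14.96 on the others; without it the difference was 0.18. None of these 3 genes passed the threshold with or without that array.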

How the results depend on the processing

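For single genes, 662 of the values under alternatives stayed on their side of the threshold, 12 of them with a turned sign but called in neither analysis and moved by less than 1 SD between replicates. Another 42 fell short of the threshold, 24 passed it and 9 turned sign by more or from a call. Quantile scaling left 3 P450 falls and turned the median of the P450 genes to 0.01, with Cyp2a12 at 0.08, Cyp2d11 at 0.09, Cyp2d26 at 0.11 and Cyp2e1 at 0.03. Normexp correction moved the median of all genes to -0.19 and called 9678 genes lower, 14 P450 genes among them, with Cyp1a1 at -0.51 and Cyp2c65 at -0.49. Median scaling moved the median of all genes to -0.08 and called 1158 genes higher, 30.1% of calls against 49.9%. Without a filter on dim probes 4 P450 genes fell, with 16.3% of the P450 genes and 8.3% of all genes called in either direction. Cyclic loess put Cyp2a12 at 0.04, the mean of kept probes put Cyp2u1 at 0.05, and leaving out probes with a GT repeat, added after seeing the data, put it at 0.42. Beyond what each setting leaves out or adds by construction, the cause was not tested.

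Leaving out each array in turn gave 3 to 9 P450 falls, 4 to 7 rises, a median of -0.15 to -0.07, and over all genes 1273 to 2037 falls and 1246 to 2087 rises. Counts over all genes moved most for falls without AdGFP replicate 1 (1360), AdGFP replicate 2 (1389) or AdLeXis replicate 4 (1273), and for rises without AdLeXis replicate 2 (1362) or replicate 4 (1246). Same-numbered arrays did not deviate together (correlations 0.01, 0.06, 0.12 and 0), so the numbers were not taken as pairs; with the replicate block 6 P450 genes fell and 7 rose, 1627 and 1522 over all genes. Dim genes such as Cyp1a1 and Cyp2c65 are limited by signal over background.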
